A study of Mus musculus with 16 samples.

Results

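The 43 genes described here encode the machinery that copies DNA and the regulators that start its synthesis: origin and helicase proteins, polymerases, the sliding clamp and its loader, enzymes of nucleotide supply, proteins that copy chromatin, G1/S regulators and fork protection factors. They were taken by symbol from a list, and all 43 of 43 were found with at least 1 CPM (counts per 1000000 total exon reads) in some library, out of 11122 features at that level among 38918 in the tables. RNA came from mouse pre-B cells, precursors of B lymphocytes, that lack the adaptor protein BLNK (Blnk-/-) and carry BLNK-ERt2 from a retrovirus, a BLNK fusion with an oestrogen receptor domain that tamoxifen switches on. The groups are cells stimulated for 0.5, 1.5 and 5 h and a control, and all of them carry both the deletion and the fusion. Each group is 1 library read in 4 sequencing lanes, so there is no spread between cell samples and no test across groups. The study set out to find genes that answer preBCR signalling. Whether control cells received a vehicle, how many clones or animals gave the cells, and which of the library kits named in the labels served which library is not stated, so any effect of the kit and that of stimulation cannot be told apart.

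Before S phase, ORC and the loading factors CDC6 and CDT1 place rings of the MCM helicase on origins. Cyclin E with its kinase, and E2F transcription factors once released from RB proteins, then allow firing, after which polymerases work on a primed template held by the PCNA clamp. Pre-B cells divide under the preBCR and IL-7 before they leave the cycle and rearrange light chain genes, so replication genes are commonly read as a measure of proliferation in this lineage. Because these are bulk samples, fewer cells in S phase and less RNA per cell cannot be told apart.

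Promoter sequence is shown for the 6 members furthest below control at 5 h that have an entry, and for Mcm6, a member that was higher at 5 h and was added after its values were seen. E2F factors are known to bind many promoters of this kind. Each line gives the 200 bases upstream of an annotated start, 5′ to 3′ on the gene's strand, from RefSeq promoter windows on GRCm38.p6, and capitals mark the letters TTTNNCGC, a relaxed form of the sequence E2F factors bind, on either strand. Where a gene had several windows, the one nearest the gene's start in the deposited tables is shown. The stretches are chr17:56303137-56303336, plus strand for Uhrf1, chr16:93883701-93883900, plus strand for Chaf1b, chr7:44548816-44549015, minus strand for Pold1, chr4:136172074-136172273, plus strand for E2f2, chr7:38107491-38107690, minus strand for Ccne1, chr8:75109309-75109508, plus strand for Mcm5 and chr1:128359706-128359905, minus strand for Mcm6.
Uhrf1: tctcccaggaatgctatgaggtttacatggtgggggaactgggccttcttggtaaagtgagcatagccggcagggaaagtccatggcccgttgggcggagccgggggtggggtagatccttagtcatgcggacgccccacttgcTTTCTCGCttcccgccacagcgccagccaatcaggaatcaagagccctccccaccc
Chaf1b: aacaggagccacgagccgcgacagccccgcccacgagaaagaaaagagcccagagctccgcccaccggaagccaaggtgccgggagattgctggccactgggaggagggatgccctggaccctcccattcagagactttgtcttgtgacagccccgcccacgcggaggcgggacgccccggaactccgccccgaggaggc
Pold1: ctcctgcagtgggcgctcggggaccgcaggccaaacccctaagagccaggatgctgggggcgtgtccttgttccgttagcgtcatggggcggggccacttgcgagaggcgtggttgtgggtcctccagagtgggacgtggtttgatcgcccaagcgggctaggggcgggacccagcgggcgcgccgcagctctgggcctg
E2f2: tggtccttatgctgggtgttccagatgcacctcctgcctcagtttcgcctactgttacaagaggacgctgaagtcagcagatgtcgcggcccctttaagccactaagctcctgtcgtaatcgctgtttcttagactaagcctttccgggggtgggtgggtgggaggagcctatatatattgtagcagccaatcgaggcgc
Ccne1: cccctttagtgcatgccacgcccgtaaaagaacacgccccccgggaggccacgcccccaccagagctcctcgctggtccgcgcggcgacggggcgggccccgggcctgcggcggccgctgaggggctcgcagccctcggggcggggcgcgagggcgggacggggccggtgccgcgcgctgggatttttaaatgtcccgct
Mcm5: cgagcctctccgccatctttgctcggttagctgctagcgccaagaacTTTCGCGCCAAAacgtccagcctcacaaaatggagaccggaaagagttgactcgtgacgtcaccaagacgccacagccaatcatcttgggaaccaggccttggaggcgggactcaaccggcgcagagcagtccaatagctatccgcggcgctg
Mcm6: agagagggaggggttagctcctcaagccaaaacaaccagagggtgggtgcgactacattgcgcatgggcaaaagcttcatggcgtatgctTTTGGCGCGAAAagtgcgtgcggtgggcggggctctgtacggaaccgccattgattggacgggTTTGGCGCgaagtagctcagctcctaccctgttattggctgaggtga
The longer capital runs in Mcm5 and in the upstream match of Mcm6 hold overlapping matches on both strands. In Pold1 and E2f2 the letters lie after the annotated start, and 30 bases around each match are shown, at chr7:44548766-44548795 on the minus strand, chr4:136172267-136172296 and chr4:136172294-136172323 on the plus strand.
Pold1, capitals from base 40 after the start: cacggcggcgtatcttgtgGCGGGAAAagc
E2f2, capitals from base 5 after the start: gaggcgcggcaTTTTCCGCgggagatccga
E2f2, capitals from base 40 after the start: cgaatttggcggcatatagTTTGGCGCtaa
Fen1, the member with the highest ratio at 5 h, is not shown and had no match. No match in Chaf1b, Ccne1 or Fen1 says only that these letters are not in the window.

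An entry existed for 37 of the 43 members. The E2F letters were in the window of 16 of these 37 members (43.2%), against 1602 of 27025 genes in the whole table (5.93%). The letters CCAAT, bound by NF-Y, were in 22 members (59.5%), against 41.1% of all genes, and TTTGAA, the cell cycle homology region of mitotic promoters, was in 5 members (13.5%), against 20.2% of all genes. The genes of the whole table were not limited to those measured in these cells, as all members are. These shares describe letters in a window, not bound sites.

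Libraries held 34533362 total exon reads in the control, 33864004 at 0.5 h, 32631061 at 1.5 h and 30746189 at 5 h, and 84.0 to 84.6% of them were placed uniquely. Reads outside exons came to 18.9% of exon reads in the control, 18.8% at 0.5 h, 19.6% at 1.5 h and 20.8% at 5 h. Of 10 pre-B markers, 9 were found, all of them at 1 CPM or more, and their summed level was 8827 CPM at 5 h, against 9916 CPM in the control. The summed level of 8 T and NK cell markers lay between 14.0 and 20.2 CPM over the libraries, with 1 of 8 at 1 CPM or more and Cd4 and Ncr1 at 0. That of 8 stromal markers lay between 0.130 and 0.215 CPM, with 0 of 8 at 1 CPM and Col3a1, Cxcl12, Lum and Kitl at 0, and that of 8 erythroid and megakaryocyte markers between 3.16 and 3.59 CPM, with 1 of 8 at 1 CPM or more. Of 8 myeloid markers 4 reached 1 CPM and none was at 0, and their sum was 76.0 CPM (control), 75.4 CPM (0.5 h), 66.6 CPM (1.5 h) and 42.9 CPM (5 h). Depth, the share outside exons, the pre-B sum and the myeloid sum all lay furthest from control at 5 h, as the members did, and their part in the results below was not tested.

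Fold values below are ratios of CPM, each followed in brackets by a 95% Clopper-Pearson interval of the read split, which covers counting error only and not differences between cultures. Total exon reads varied slightly more between lanes than sampling alone gives, by a chi-square per degree of freedom of 1.24 to 1.32, so intervals can be too narrow. In uniquely placed exon reads that value was 0.992 to 1.01. A gene counted as lower when its level was at least 20% below that of the comparison library and as higher when at least 25% above it, both measured after adding 1 CPM to each library, which are log2 ratios of equal size. The higher library had to have at least 5 CPM. All 43 members passed that floor. Levels of 12 members are less certain because another measured feature overlaps them, namely Mcm7, Orc1, Cdt1, Cdc45, Gins2, Rfc4, Rfc5, Fen1, Lig1, Tk1, Chaf1a and Ccne2.

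At 5 h most of the 43 members were modestly lower than in control cells. They were chosen with earlier results of these data known, and 86 further genes of the same processes had a median log2 ratio of -0.05. Of the 43 members, 15 were at least 20% lower at 5 h, namely Uhrf1, Chaf1b, Pold1, E2f2, Gins2, Ccne2, Ccne1, Mcm5, Lig1, Rrm2, Cdc6, Clspn, E2f1, Dut and Dnmt1. The background for that count was 12.3% of 9520 features. None was at least 25% higher, against 10.7% of features. The log2 ratio was below 0 in 38 members, against 49.5% of features. Its median over the members was -0.22, and over all features it was -0.005. Lanes of the 5 h library did not overlap lanes of the control in 35 members. The share over all features is not given for that count. Lanes are repeats of 1 library, so it describes sequencing and not cells. The summed level of all 43 was 5770 CPM at 5 h, against 6875 CPM in the control, which is 16.1% lower.

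**Figure D1:**
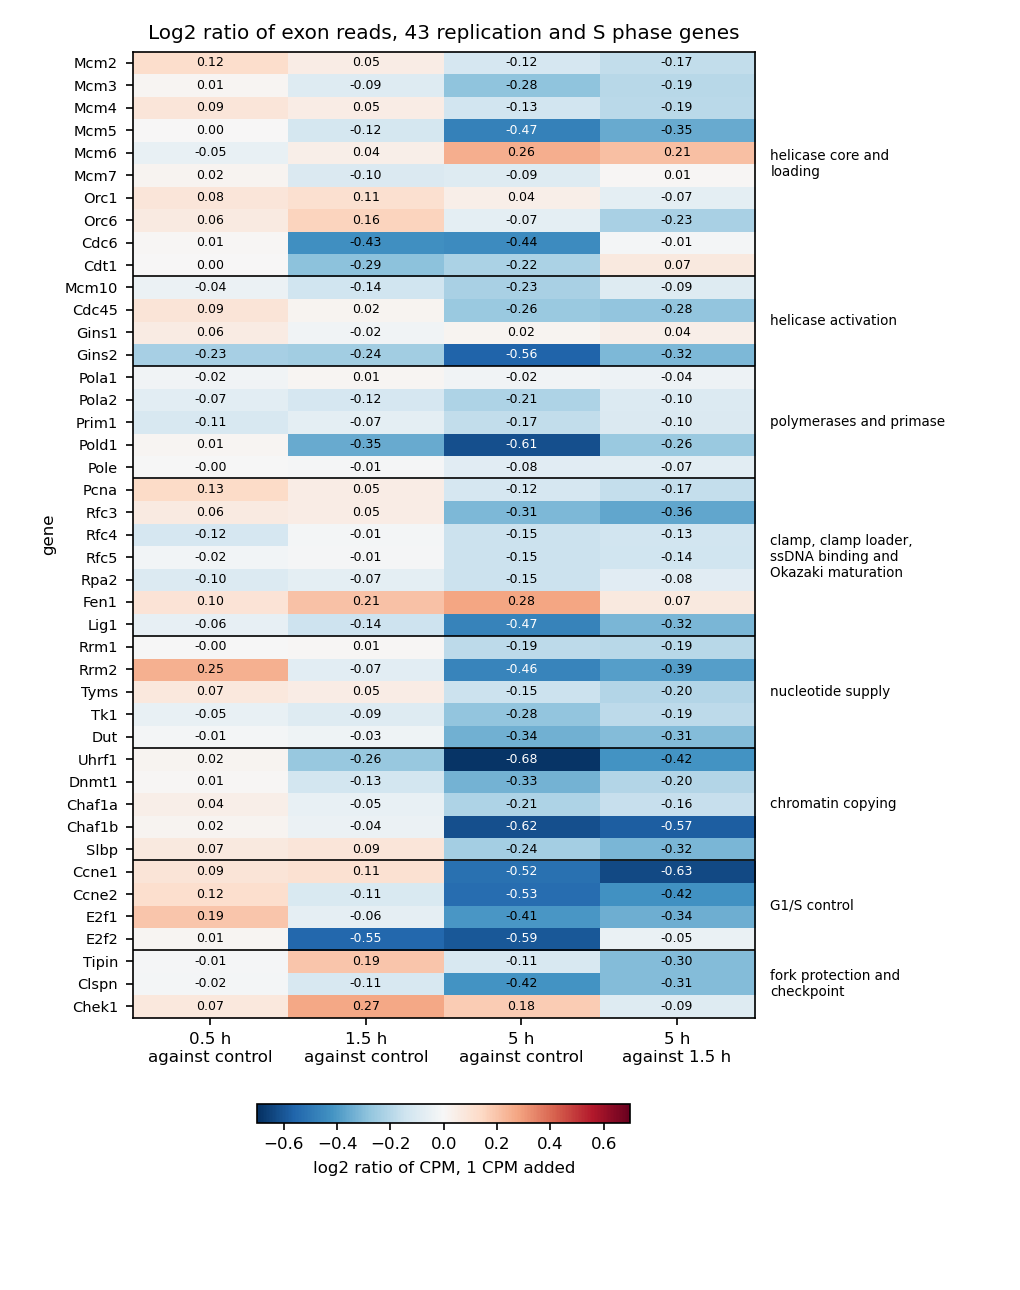
Log2 ratio of exon reads (CPM, 1 CPM added) for each of the 43 genes, in rows grouped by role, and for each of 4 comparisons, in columns. Blue is lower and red is higher in the library named first; the 5 h column is mostly blue, with Uhrf1 at -0.68, while Fen1 at 0.28 and Mcm6 at 0.26 are its highest values.

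The earlier libraries differed less from control. At 0.5 h no member was at least 20% lower (0.872% of 9516 features were) and none was at least 25% higher (3.25% of features). The members' median log2 ratio was 0.01 and their sum stood at 7027 CPM, 2.22% above control. The largest values at 0.5 h belonged to Rrm2, at 1.19-fold higher (1.16 to 1.22), and Gins2, at 1.20-fold lower (1.01 to 1.42). At 1.5 h 3 members, E2f2, Cdc6 and Pold1, were at least 20% lower, against a background of 9.22% of 9512 features, and none was at least 25% higher, against 10.8%. The median at 1.5 h was -0.04 and 27 of 43 members lay below 0, against 51.1% of features, and the sum stood at 6548 CPM, 4.75% lower than in the control.

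The step between 1.5 and 5 h held most of the difference from control in the members' sum. Set against 1.5 h, 9 members were at least 20% lower in the 5 h library (8.27% of 9453 features were), none was at least 25% higher (6.97% of features), and 38 of 43 lay below 0 (51.4% of features). The median log2 ratio was -0.19 and the sum 11.9% lower. The 9 were Ccne1, Chaf1b, Ccne2, Uhrf1, Rrm2, Rfc3, Mcm5, E2f1 and Slbp. The comparisons of 5 h with 1.5 h and with control share the 5 h library and are not independent.

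**Figure D2:**
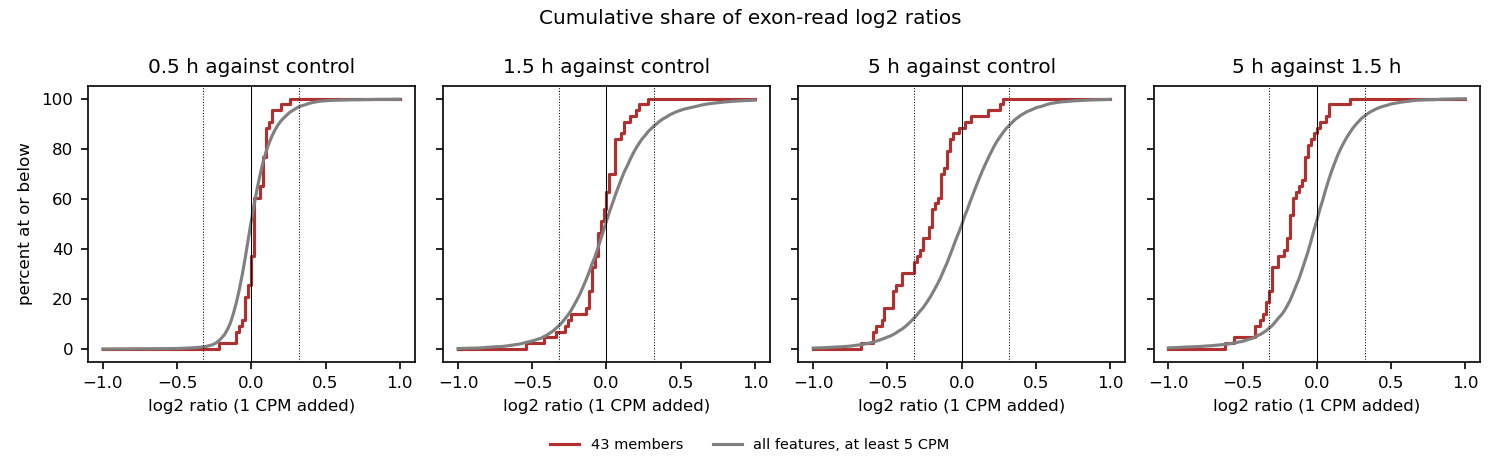
Cumulative percent of genes at or below each log2 ratio of exon reads, for the 43 members (red) and for all features with at least 5 CPM (grey), in 4 comparisons; dotted lines mark 20% lower and 25% higher and the solid line marks 0. The red curve lies left of the grey one at 5 h, where 38 of 43 members are below 0, and close to it at 1.5 h.

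Among the members, the G1/S regulators were the role with the lowest ratios at 5 h. All 4 were at least 20% lower than control, against 12.3% of all features, with a median log2 ratio of -0.53. Their summed level was 173 CPM at 5 h, against 254 CPM in the control, 32.1% lower. Other G1/S control genes, which are not members, had a median of -0.05 at 5 h. Of these, 2 of 17 were at least 20% lower, close to the share of all features. E2f2 (chromosome 4, 136172394 to 136196057, mm10), an activating E2F factor, stood at 152 CPM (control), 153 CPM (0.5 h), 104 CPM (1.5 h) and 100.5 CPM (5 h). It was 1.47-fold lower (1.40 to 1.53) at 1.5 h and 1.51-fold lower (1.45 to 1.58) at 5 h, and the later libraries, at 1.5 h and 5 h, did not differ beyond their counting error. Lanes of both were below every control lane, at 102 to 107 CPM at 1.5 h and 98.4 to 102 CPM at 5 h, against 147 to 158 CPM in the control. E2f1 (chromosome 2, 154559407 to 154569892), the founding activator of the family, stood at 38.3 CPM (control), 43.9 CPM (0.5 h), 36.5 CPM (1.5 h) and 28.6 CPM (5 h). Its highest library was 0.5 h, at 1.15-fold higher (1.06 to 1.24), and its lowest 5 h, at 1.34-fold lower (1.23 to 1.46) than control. Lanes overlapped the control at 0.5 h and did not at 5 h. Against 1.5 h it was 1.28-fold lower (1.17 to 1.40) at 5 h, a call that was lost with 5 CPM added in place of 1, at a log2 ratio of -0.31.

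Cyclins E1 and E2 activate CDK2 at the start of S phase. Ccne1 (chromosome 7, 38097984 to 38107534) stood at 34.7 CPM (control), 37.0 CPM (0.5 h), 37.4 CPM (1.5 h) and 23.8 CPM (5 h). The 0.5 and 1.5 h libraries lay slightly above control and the 5 h library below it, 1.46-fold lower (1.33 to 1.60) than control and 1.57-fold lower (1.43 to 1.72) than at 1.5 h, the lowest member in that comparison. Its lanes spanned 22.2 to 25.7 CPM at 5 h, against 32.4 to 36.2 CPM in the control. Ccne2 (chromosome 4, 11191351 to 11204779) stood at 29.0 CPM (control), 31.5 CPM (0.5 h), 26.8 CPM (1.5 h) and 19.7 CPM (5 h), and was 1.47-fold lower (1.33 to 1.63) at 5 h, with 75.2% of its reads placed uniquely. The time courses differed, since E2f2 was low from 1.5 h, while Ccne1, Ccne2 and E2f1 were low in the 5 h library.

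**Figure D3:**
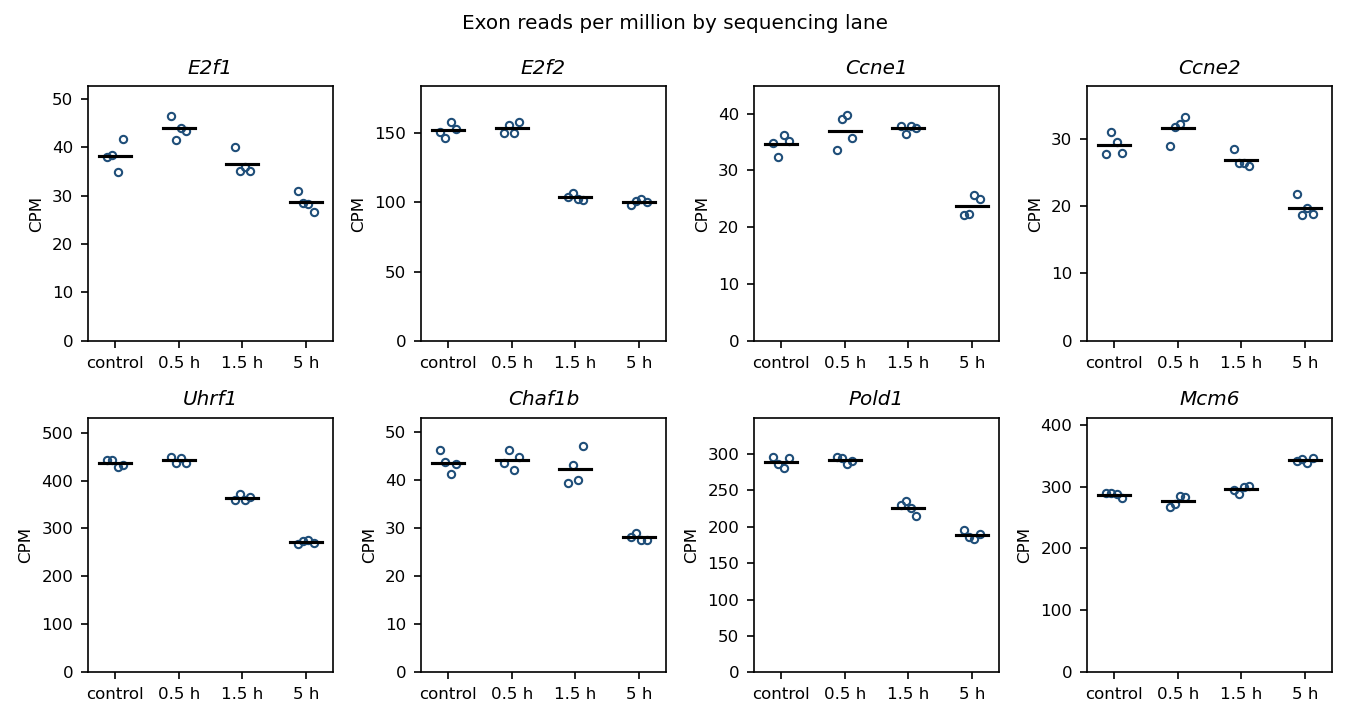
Exon reads per 1000000 (CPM, axis from 0) of 8 members in the 4 libraries; circles are the 4 sequencing lanes of a library, which are technical repeats, and bars are the library's value. E2f2 is low from 1.5 h, Ccne1 and Chaf1b are low at 5 h, and Mcm6 is highest at 5 h, at 343 CPM.

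Among the 10 genes of the helicase core and its loading, 2 were at least 20% lower at 5 h, Mcm5 and Cdc6, against 12.3% of all features, and the median log2 ratio was -0.12. Cdc6 (chromosome 11, 98907801 to 98923940), the ATPase that helps ORC load the helicase, stood at 49.1 CPM (control), 49.4 CPM (0.5 h), 36.2 CPM (1.5 h) and 35.9 CPM (5 h), 1.36-fold lower (1.26 to 1.46) at 1.5 h and 1.37-fold lower (1.27 to 1.48) at 5 h. Its lanes at 1.5 h, 33.4 to 40.5 CPM, lay below those of the control, 46.5 to 51.2 CPM. Cdt1, the other loading factor, stood at 29.6 CPM (control), 29.7 CPM (0.5 h), 24.1 CPM (1.5 h) and 25.3 CPM (5 h), and its lanes overlapped in every comparison. Orc1 and Orc6, subunits of the origin recognition complex, had log2 ratios of 0.04 and -0.07 at 5 h with overlapping lanes. Only 39.8% of Orc1 reads were unique, so its level is uncertain, and in unique reads its log2 ratio at 5 h was -0.00.

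MCM2 to MCM7 form a single ring, and at 5 h their transcripts differed in direction: 5 lay below control and Mcm6 above it. Mcm5 (chromosome 8, 75109528 to 75128439) stood at 331 CPM (control), 331 CPM (0.5 h), 304 CPM (1.5 h) and 238 CPM (5 h), 1.39-fold lower (1.35 to 1.43) at 5 h and 1.28-fold lower (1.24 to 1.32) when 5 h was set against 1.5 h. That call was lost when total gene reads were used, at a log2 ratio of -0.30. Mcm6 (chromosome 1, 128331591 to 128359656) stood at 287 CPM (control), 277 CPM (0.5 h), 296 CPM (1.5 h) and 343 CPM (5 h), 1.19-fold higher (1.16 to 1.23) at 5 h, with lanes of 338 to 346 CPM at 5 h, against 281 to 289.6 CPM in the control. Mcm3 stood at 388 CPM (control), 391 CPM (0.5 h), 365 CPM (1.5 h) and 319 CPM (5 h), 0.821 times as high (0.800 to 0.843) at 5 h, just short of the limit. Mcm2 stood at 279 CPM (control), 304 CPM (0.5 h), 289 CPM (1.5 h) and 257 CPM (5 h), and Mcm4 at 231 CPM (control), 245 CPM (0.5 h), 239.7 CPM (1.5 h) and 211 CPM (5 h). Both were highest at 0.5 h and 1.08-fold lower (1.05 to 1.12) and 1.10-fold lower (1.06 to 1.13) at 5 h. Mcm7 stood at 391 CPM (control), 397 CPM (0.5 h), 365 CPM (1.5 h) and 367 CPM (5 h), 1.07-fold lower (1.04 to 1.09) at 5 h. In none of the 6 ring genes did a 5 h lane overlap a control lane, although lanes are only sequencing repeats of 1 library. With this many reads per gene, lanes parted even at the 1.07-fold of Mcm7, and the share over all features is not given.

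Per kb of annotated exon, Mcm6 and Mcm5 had similar levels in the control library, 99.0 and 96.6 CPM per kb. The annotated length need not be that of the RNA in these cells, so levels of different genes compare only roughly. At 5 h they were 118 and 69.5 CPM per kb, so the ratio of Mcm6 to Mcm5 was 1.70 (1.65 to 1.75) at 5 h, against 1.02 (0.997 to 1.05) in the control. It was 0.985 at 0.5 h and 1.15 at 1.5 h. This pair was chosen after its values were seen, as were the pairs below. In total exon reads of the control library, levels over the 43 members ran from 2.25 CPM per kb for Gins2 to 212 CPM per kb for Pcna, of whose reads 49.3% were unique.

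Of the 4 helicase activators, Gins2 was at least 20% lower at 5 h, against 12.3% of all features. Gins2, a GINS subunit and the least abundant member, stood at 9.24 CPM (control), 7.71 CPM (0.5 h), 7.66 CPM (1.5 h) and 5.95 CPM (5 h), 1.55-fold lower (1.29 to 1.87) at 5 h, from 183 reads at 5 h and 319 in the control. Cdc45, which with GINS completes the helicase, stood at 120.4 CPM (control), 128 CPM (0.5 h), 122 CPM (1.5 h) and 100.3 CPM (5 h), 1.20-fold lower (1.15 to 1.26) at 5 h. Mcm10 was 1.17-fold lower (1.11 to 1.24) at 5 h, and Gins1, another GINS subunit, did not differ beyond counting error, at 1.01-fold control (0.916 to 1.12).

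Of the 5 polymerase and primase members, Pold1, the catalytic subunit of polymerase delta, was at least 20% lower at 5 h (12.3% of all features were). Pold1 (chromosome 7, 44532746 to 44548849) stood at 289 CPM (control), 292 CPM (0.5 h), 226 CPM (1.5 h) and 189 CPM (5 h). It was 1.28-fold lower (1.24 to 1.32) at 1.5 h and 1.53-fold lower (1.48 to 1.58) at 5 h, with lanes of 214 to 236 CPM at 1.5 h and 183 to 196 CPM at 5 h, against 280.5 to 296 CPM in the control. At 1.5 h its log2 ratio was -0.35, and -0.32 without lane 4, just under the limit. Pole, the catalytic subunit of polymerase epsilon, stood at 148 CPM (control), 148 CPM (0.5 h), 147 CPM (1.5 h) and 139.6 CPM (5 h), and Pola1, that of polymerase alpha, at 96.4 CPM (control), 94.8 CPM (0.5 h), 97.3 CPM (1.5 h) and 94.9 CPM (5 h). Neither passed the limit, and their lanes at 5 h overlapped the control. Pola2, the accessory subunit of polymerase alpha, and Prim1, the primase that lays RNA primers, were 1.16-fold lower (1.11 to 1.22) and 1.13-fold lower (1.08 to 1.18) at 5 h. Per kb, the ratio of Pold1 to Pole was 2.67 (2.56 to 2.78) at 5 h and 3.04 (2.93 to 3.16) at 1.5 h, against 3.86 (3.73 to 3.99) in the control.

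Of the 7 genes of the clamp, its loader, single-strand binding and Okazaki fragment maturation, Lig1 alone was at least 20% lower at 5 h, a share close to the 12.3% of all features. Lig1 (chromosome 7, 13277283 to 13311433), the ligase that seals Okazaki fragments, stood at 245 CPM (control), 236 CPM (0.5 h), 222 CPM (1.5 h) and 177 CPM (5 h), 1.38-fold lower (1.34 to 1.43) at 5 h. Pcna (chromosome 2, 132249162 to 132253314), the clamp, stood at 509 CPM (control), 559 CPM (0.5 h), 527 CPM (1.5 h) and 469 CPM (5 h), 1.10-fold higher (1.08 to 1.12) at 0.5 h and 1.09-fold lower (1.06 to 1.11) at 5 h, with 49.3% of its reads unique. In unique reads its log2 ratio at 5 h was -0.13, against -0.12 in total exon reads. The loader subunit Rfc3 stood at 44.9 CPM (control), 47.0 CPM (0.5 h), 46.5 CPM (1.5 h) and 35.9 CPM (5 h), 1.29-fold lower (1.20 to 1.40) when 5 h was set against 1.5 h and 0.800 times as high (0.740 to 0.865) against control, where its log2 ratio of -0.31 was short of the limit. Rfc4 and Rfc5, further loader subunits, and Rpa2, which coats single strands, each had a log2 ratio of -0.15 at 5 h, with no lane overlapping the control. Fen1, the flap nuclease, stood at 120.1 CPM (control), 128 CPM (0.5 h), 139 CPM (1.5 h) and 146 CPM (5 h), 1.21-fold higher (1.16 to 1.26) at 5 h. It had 17.2% unique reads and overlaps Tmem258, and in unique reads its log2 ratio at 5 h was 0.16, against 0.28 in total exon reads.

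In nucleotide supply, 2 of 5 genes were at least 20% lower at 5 h, Rrm2 and Dut, against 12.3% of all features, and the summed level was 19.0% lower than in the control. Rrm2 (chromosome 12, 24708241 to 24714146), the S phase subunit of ribonucleotide reductase, stood at 289 CPM (control), 344 CPM (0.5 h), 275 CPM (1.5 h) and 209.9 CPM (5 h). It was the highest member at 0.5 h, 1.19-fold higher (1.16 to 1.22), and 1.38-fold lower (1.34 to 1.42) at 5 h, and its lanes at these times lay on opposite sides of the control lanes, at 331 to 353 CPM at 0.5 h and 203 to 213 CPM at 5 h, against 282 to 297 CPM in the control. Rrm1, the large subunit of the same enzyme, stood at 288 CPM (control), 287 CPM (0.5 h), 289 CPM (1.5 h) and 253 CPM (5 h). Per kb, the ratio of Rrm2 to Rrm1 was 1.73 (1.68 to 1.78) at 0.5 h, 1.37 (1.33 to 1.41) at 1.5 h and 1.20 (1.16 to 1.24) at 5 h, against 1.45 (1.41 to 1.49) in the control. Dut, which keeps uracil out of DNA, was 1.27-fold lower (1.20 to 1.33) at 5 h, close to the limit: its log2 ratio was -0.34, and -0.32 without lane 2 or with TMM factors. Tyms, which makes thymidylate, and Tk1, thymidine kinase, were 1.11-fold lower (1.04 to 1.19) and 1.21-fold lower (1.16 to 1.28) at 5 h, with 23.6% of Tk1 reads unique and a log2 ratio of -0.24 at 5 h in those reads.

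The genes that copy chromatin held the lowest single value. Of 5, Uhrf1, Chaf1b and Dnmt1 were at least 20% lower at 5 h, against 12.3% of all features, with a median log2 ratio of -0.33 and a sum 25.6% lower. Uhrf1 (chromosome 17, 56303321 to 56323486), which recruits the maintenance methyltransferase to new DNA, stood at 437 CPM (control), 443 CPM (0.5 h), 364 CPM (1.5 h) and 272 CPM (5 h), 1.20-fold lower (1.17 to 1.23) at 1.5 h, 1.61-fold lower (1.57 to 1.65) at 5 h and 1.34-fold lower (1.30 to 1.38) when 5 h was set against 1.5 h. Its lanes did not overlap between these times, at 268 to 276 CPM at 5 h, 359 to 371 CPM at 1.5 h and 429 to 444 CPM in the control, and the 0.5 h lanes overlapped the control. Dnmt1 (chromosome 9, 20907206 to 20959888), that methyltransferase, stood at 590.2 CPM (control), 593 CPM (0.5 h), 540.1 CPM (1.5 h) and 469 CPM (5 h), 1.26-fold lower (1.23 to 1.29) at 5 h, with a log2 ratio of -0.33 that was -0.32 without lane 3 and -0.31 with TMM factors, under the limit.

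CAF-1 places new histones behind the fork. Its small subunit Chaf1b (chromosome 16, 93883901 to 93906115) stood at 43.7 CPM (control), 44.3 CPM (0.5 h), 42.4 CPM (1.5 h) and 28.2 CPM (5 h), 1.55-fold lower (1.43 to 1.69) than in the control and 1.51-fold lower (1.38 to 1.64) than at 1.5 h, where no lane overlapped. The large subunit Chaf1a stood at 142 CPM (control), 146 CPM (0.5 h), 137 CPM (1.5 h) and 122 CPM (5 h), 1.16-fold lower (1.11 to 1.21) at 5 h. Per kb, the ratio of Chaf1b to Chaf1a was 0.153 (0.142 to 0.164) at 5 h, against 0.204 (0.192 to 0.216) in the control and 0.205 (0.193 to 0.218) at 1.5 h. Slbp, which binds the stem loop of replication-dependent histone mRNAs, stood at 113 CPM (control), 119 CPM (0.5 h), 119.9 CPM (1.5 h) and 95.7 CPM (5 h). It was 0.798 times as high (0.760 to 0.837) at 5 h when set against 1.5 h, a value at the limit: the call was lost in 7 of 14 alternatives, among them without lane 3 (log2 ratio -0.31), without lane 4 (-0.30), in unique exon reads (-0.32) and in total gene reads (-0.29).

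Of the 3 fork protection genes, Clspn was at least 20% lower at 5 h, against 12.3% of all features. Clspn, the adaptor through which ATR activates CHK1, stood at 162 CPM (control), 161 CPM (0.5 h), 150.2 CPM (1.5 h) and 121 CPM (5 h), 1.34-fold lower (1.28 to 1.40) at 5 h. Chek1, the CHK1 kinase, stood at 27.5 CPM (control), 29.0 CPM (0.5 h), 33.3 CPM (1.5 h) and 31.2 CPM (5 h), 1.21-fold higher (1.11 to 1.32) at 1.5 h and 1.14-fold higher (1.04 to 1.24) at 5 h. Its lanes overlapped the control at 1.5 h. At 5 h they met it, the lowest 5 h lane and the highest control lane both being at 30.2 CPM. At both times Chek1 stayed under the limit. Tipin, which with TIMELESS travels with the fork, was 1.15-fold higher (1.08 to 1.21) at 1.5 h and 1.08-fold lower (1.02 to 1.15) at 5 h.

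By role, the summed exon reads at 5 h were lower than control by 32.1% for G1/S control, 25.6% for chromatin copying, 19.0% for nucleotide supply, 18.2% for polymerases and primase, 16.3% for fork protection, 14.9% for helicase activation, 9.96% for the clamp and maturation group and 9.39% for the helicase core. These sums cover the 43 members only, and no role among them stood above control at 5 h. At 1.5 h the G1/S genes were already 19.5% lower, polymerases and primase 10.1% and chromatin copying 9.25%, and the other roles lay between 3.66% lower and 1.58% higher.

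**Figure D4:**
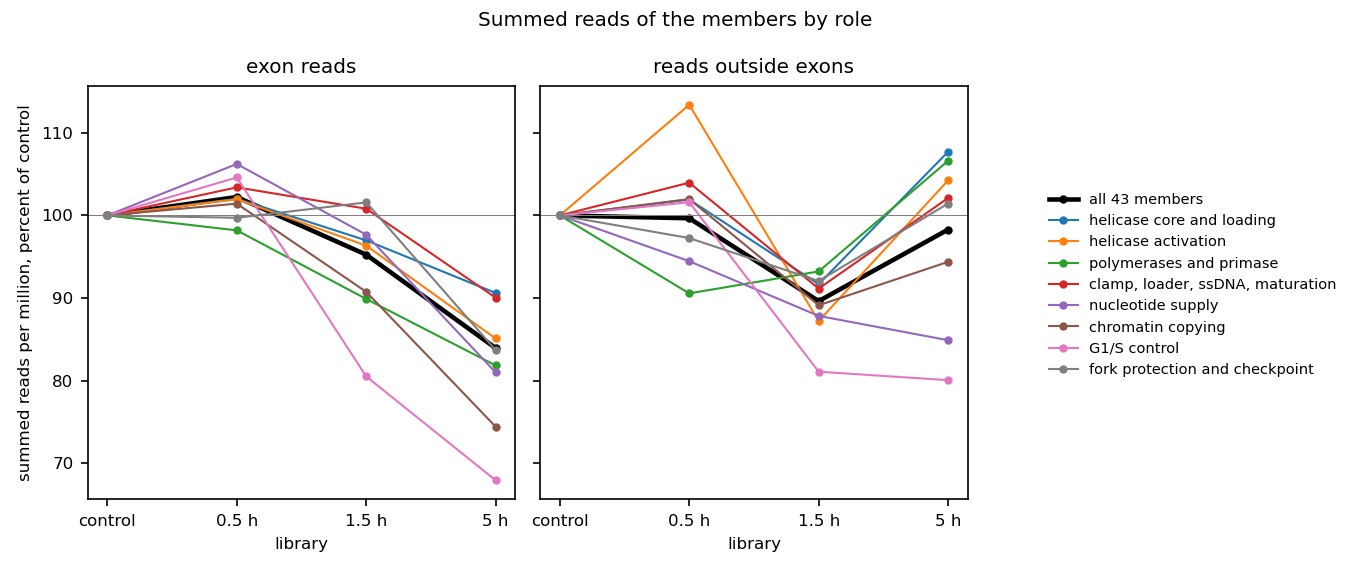
Summed reads per 1000000 of each role as percent of control (axis not from 0), for exon reads on the left and for reads outside exons on the right, against library; the thick line is all 43 members. In exon reads every line ends below control at 5 h, lowest for G1/S control at -32.1%, while in reads outside exons the thick line is lowest at 1.5 h, at -10.4%, and near control at 5 h.

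Reads outside exons include those from introns of RNA not yet spliced, but strand was not stated and overlapping genes can add to them. They were compared for the 38 members with at least 100 such reads per library on average, per 1000000 exon reads and with nothing added before the ratio. Here 1.5 h, not 5 h, was the low point. At 1.5 h 31 of 38 members lay below 0, against 41.2% of 8205 features, and 9 were at least 20% lower, against 13.2% of features, while Mcm6 alone was at least 25% higher, against 25.1%. The members' median log2 ratio was -0.16, and that of all features was 0.08, so relative to all features the members stood at -0.24. At 5 h the members' median was 0.04, against 0.17 for all features, or -0.14 relative to them. At 5 h, 17 of 38 members lay below 0 (23.7% of features). Rrm2, Tyms, E2f1, Uhrf1 and Ccne2, 5 members, were then at least 20% lower (4.58% of features) and Mcm6 and Chek1, 2 members, higher (26.9% of features). At 0.5 h none was at least 20% lower (8.06% of features) and Cdc6 was at least 25% higher (10.7% of features), with 20 of 38 below 0 (49.8% of features). Set against 1.5 h, the 5 h library had 5 members at least 25% higher (22% of features) and 1 lower (12% of features), with 12 of 38 below 0 (39.6% of features) and a median of 0.20.

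Rrm2 was the extreme at 1.5 h. It had 240 reads outside exons in the control, 250 at 0.5 h, 124 at 1.5 h and 142 at 5 h, 1.83-fold lower (1.47 to 2.29) at 1.5 h and 1.50-fold lower (1.22 to 1.87) at 5 h, whereas its exon reads at 1.5 h were 1.05-fold lower (1.02 to 1.08). Uhrf1 had 834 reads outside exons in the control, 784 at 0.5 h, 575 at 1.5 h and 586 at 5 h, 1.37-fold lower (1.23 to 1.53) at 1.5 h and 1.27-fold lower (1.14 to 1.41) at 5 h. Pold1 was 1.40-fold lower (1.24 to 1.58) and E2f2 1.32-fold lower (1.21 to 1.45) outside exons at 1.5 h, the time at which their exon reads were also low. Mcm5 was 1.32-fold lower (1.19 to 1.46) at 1.5 h and stood at 1.03-fold control (0.937 to 1.14) at 5 h, although its exon reads were lowest at 5 h. Mcm6 went the other way: it had 438 reads outside exons in the control, 452 at 0.5 h, 580 at 1.5 h and 498 at 5 h, 1.40-fold higher (1.24 to 1.59) at 1.5 h, the highest of the 38, and 1.28-fold higher (1.12 to 1.46) at 5 h. E2f1 was 1.38-fold lower (1.14 to 1.67) outside exons at 5 h. Each of these values rests on far fewer reads than the exon values.

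**Figure D5:**
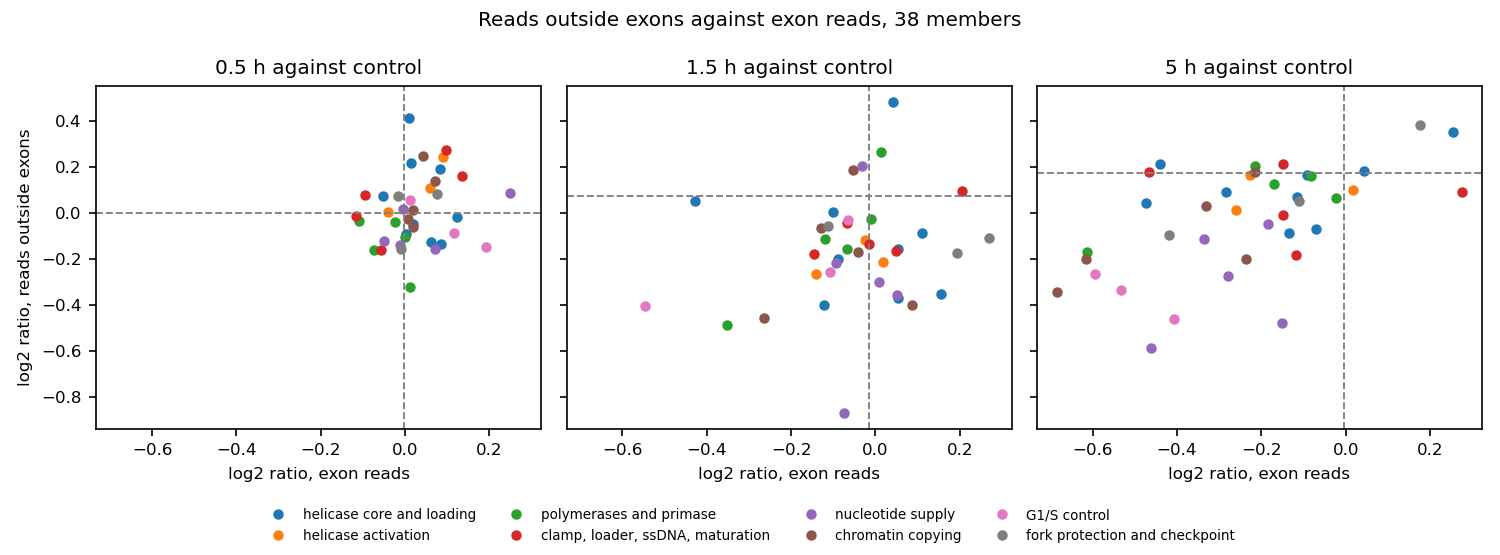
Log2 ratio of reads outside exons (vertical) against that of exon reads (horizontal) for 38 members, coloured by role, at 0.5, 1.5 and 5 h against control; dashed lines are medians of all features. At 1.5 h most points lie below the horizontal dashed line, with Rrm2 lowest at -0.87 and Mcm6 highest at 0.49, and at 5 h the points spread to the left.

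Restricting the comparison to the 29 members that overlap no other measured feature left the 1.5 h median at -0.16 and moved the 5 h median to -0.01. Reads that cross an exon-intron junction, a separate column of the tables, gave 42.1 per 1000000 for the 43 members together at 1.5 h and 44.5 at 5 h, against 50.7 in the control. These are 17.0% and 12.2% lower, whereas over all features such reads were 5.55% and 6.16% higher. Reads that cross an exon-exon junction were 16.8% lower for the members at 5 h and 0.995% lower over all features.

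Further genes of the same processes, 87 by list and 86 of them with enough reads, went in both directions: at 5 h 10 were at least 20% lower and 6 higher, with a median log2 ratio of -0.05, against 12.3% lower and 10.7% higher among all features. The other polymerase, clamp and maturation genes had 6 of 18 lower, none higher (12.3% and 10.7% of all features), 17 below 0 and a median of -0.24. They include Pold4, the small subunit of polymerase delta, at 41.9 CPM at 5 h, against 61.7 CPM in the control, 1.47-fold lower (1.37 to 1.58). Chtf18 and Dscc1, of the alternative clamp loader, were 1.35-fold lower (1.24 to 1.46) and 1.36-fold lower (1.17 to 1.59). Among the other G1/S genes, E2f8 and E2f7, repressors of the E2F family, were 1.48-fold lower (1.41 to 1.55) and 1.27-fold lower (1.19 to 1.35) at 5 h, and these were the 2 of 17 past the limit. Gmnn, the inhibitor of CDT1, was 1.33-fold lower (1.26 to 1.41), and Orc2, an origin complex subunit, was 1.38-fold higher (1.28 to 1.49). The histone chaperones Asf1b and Asf1a went in opposite directions at 5 h, 1.35-fold lower (1.29 to 1.41) and 1.33-fold higher (1.16 to 1.52), with 46.5% of Asf1a reads unique. Atr, the kinase upstream of CHK1, and Rad9a, of the checkpoint clamp, were 1.37-fold higher (1.31 to 1.44) and 1.28-fold higher (1.19 to 1.39). In nucleotide supply Dctd, deoxycytidylate deaminase, and Dctpp1, a dCTP pyrophosphatase, were 1.42-fold higher (1.28 to 1.57) and 1.31-fold higher (1.23 to 1.39).

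Regulators on the same list went in both directions at 1.5 h. Of the 86 further genes, 4 were then at least 20% lower and 6 at least 25% higher, against 9.22% and 10.8% of all features. For 5 h set against 1.5 h the counts were 7 lower and 6 higher, against 8.27% and 6.97% of features. The genes named next are the extremes. Cdkn1b, which encodes the CDK inhibitor p27, was at 137 CPM at 1.5 h, against 207 CPM in the control, 1.51-fold lower (1.45 to 1.57), and Rbl2, the pocket protein p130, was 1.50-fold lower (1.39 to 1.62). Cdc25a, the phosphatase that activates CDK2, was 1.33-fold higher (1.26 to 1.40), while E2f2 was low at the same time. When 5 h was set against 1.5 h, Cdkn1b was 1.64-fold higher (1.58 to 1.70) and Rbl2 1.49-fold higher (1.37 to 1.61), and Cdc25a was 1.48-fold lower (1.40 to 1.57). Both comparisons hold the 1.5 h library, so their values are not independent. Genes of G2 and mitosis, 25 in number, had median log2 ratios of -0.12 at 1.5 h and -0.07 at 5 h, against -0.01 and -0.005 over all features. Ccnb2, cyclin B2, was the 1 gene of the 25 at least 20% lower at 5 h, against 12.3% of all features. It was 1.47-fold lower (1.41 to 1.53).

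Members with the E2F letters in their promoter window had a median log2 ratio of -0.32 at 5 h, and 8 of 16 were at least 20% lower, against a median of -0.21 and 5 of 21 for members without them. Over all features 12.3% were that much lower. At 1.5 h the medians were -0.12 with them and -0.01 without. The ranges overlapped widely at 5 h, -0.68 to 0.26 with the letters and -0.62 to 0.28 without. Mcm6, with 3 matches, was higher at 5 h, as was Fen1, without a match. The split is a description with no test.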

How the data were processed

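RNA of pre-B cells in 4 conditions was selected for poly(A), made into libraries and sequenced on an Illumina HiSeq, per the labels' protocols. The submitters' processing notes name CASAVA 1.8.2 and mm10, with aligner, counting program and strand of counting not given in the sources used here. Raw, unnormalized counts for each gene in each lane were deposited by the authors, per the file headers. The 4 lanes of a library are technical repeats and were summed, no pair of lanes was identical, and each condition has 1 library, so no p-value is given. Counts were scaled to CPM, counts per 1000000 total exon reads, and log2 ratios were taken after adding 1 CPM. A gene whose higher library reached 5 CPM was set against a limit of 20% lower or 25% higher. Reads outside exons are total gene reads minus total exon reads, used where they averaged at least 100 per library. Intervals are 95% Clopper-Pearson intervals and cover counting error only. At these depths 3 counts correspond to 0.0869 to 0.0976 CPM.

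The 43 members and all gene lists were chosen with earlier results of these data known. All 43 members are accounted for, those with the largest ratios and the main S phase genes in full; of each other list, up to 3 genes per comparison with the largest ratios past the limit are named. Promoter windows came from RefSeq, GRCm38.p6. Alternatives were other scaling (TMM of edgeR 4.0.16, size factors of DESeq2 1.42.0 in R 4.3.3), added CPM, read columns, limits, lanes left out and a lane block. The calculations were tested on simulated data and used scipy 1.17.1, numpy 2.4.6 and pandas 2.3.3 under Python 3.11.15, with figures from matplotlib 3.10.9.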

Additional observations from a re-analysis of the deposited data

Results flagged for a closer look

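In 14 of 176 sets of 4 lanes (43 genes and their sum, 4 libraries each), 1 lane lay apart from the other 3 by more than Dixon's 95% critical value allows, and chance does this in about 1 set in 20. In the control library the highest lane lay apart for Mcm2 (287 CPM), Tk1 (111 CPM) and Chek1 (30.2 CPM), and the lowest for Mcm6 (281 CPM), Mcm10 (86.3 CPM), Prim1 (115 CPM) and Fen1 (117 CPM). At 0.5 h the highest lane lay apart for Mcm10 (90.7 CPM) and Rfc3 (50.2 CPM). At 1.5 h the lowest lay apart for Rfc3 (44.0 CPM) and Chek1 (29.8 CPM), and the highest for E2f1 (40.0 CPM). At 5 h the lowest lay apart for Mcm3 (311 CPM) and Rrm2 (203 CPM). The lanes are repeats of 1 library, so these values describe sequencing and not cells.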

How the results depend on the processing

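With 1 library per condition, no alternative bears on differences between cell samples, and depth limits Gins2 most, at 183 reads at 5 h. Raising the limit to 1.5-fold left 0 members lower at 1.5 h, 4 at 5 h and 1 at 5 h against 1.5 h. Over all features 2.04%, 3.07% and 2.19% lay at or below a log2 ratio of -0.58, close to 1.5-fold. A 2-fold limit left 0, 0 and 0 members, and 0.210%, 0.399% and 0.444% of all features lay at or below -1. Centring on all features moved the median of reads outside exons to -0.24 at 1.5 h and -0.14 at 5 h. The centring changed the sign of the 5 h value, which was 0.04, and in members that overlap no other feature it was -0.01. At 0.5 h the median outside exons was -0.01, and 0.02 without lane 3. Without each lane in turn, the count of members lower was 0 to 0 at 0.5 h, 2 to 4 at 1.5 h, 14 to 16 at 5 h and 9 to 11 at 5 h against 1.5 h. The exon medians ranged over 0.007 to 0.018, -0.049 to -0.029, -0.241 to -0.206 and -0.186 to -0.170 in the same comparisons, and the outside-exon medians over -0.013 to 0.017, -0.175 to -0.146, 0.007 to 0.047 and 0.174 to 0.194. With lane as a replicate block the counts were 0, 3, 15 and 8, and the exon medians 0.012, -0.043, -0.222 and -0.186. TMM factors gave 13 and DESeq2 size factors 14 members lower at 5 h. Of 27 gene and comparison pairs past the limit, 6 were under it in at least 1 of 14 alternatives, all of them close to the limit (Dnmt1 and Dut at 5 h, Pold1 at 1.5 h, and E2f1, Mcm5 and Slbp at 5 h against 1.5 h).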
